A study of Rattus norvegicus with 24 samples.

Results

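The numbered Zfp genes are the rat genes whose symbol is Zfp followed by digits. Probe sets were kept where the platform annotation gives exactly 1 gene symbol and that symbol has this form, and each gene was represented by its probe set with the highest mean signal. This gave 193 genes, from 309 probe sets, of the 14217 genes measured with 1 symbol. Of the 193 genes, 189 had their gene ID in the GRCr8 reference table, where 51 lie on chromosome 1 and 3 on the X chromosome. The samples were germ cells of Brown Norway rats aged 4 months (young) or 18 months (aged). Collagenase and trypsin freed the testicular cells, and sedimentation in a density gradient separated pachytene spermatocytes from round spermatids, each at a stated purity above 83%. Each of the 4 groups (young pachytene, aged pachytene, young round spermatid, aged round spermatid) held 6 arrays. The numbers in the titles, read here as rats, pair both fractions of each of 12 rats. No treatment, allele or transgene is recorded for any group.

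Zinc finger proteins of this naming series mostly carry tandem C2H2 fingers, small domains folded around a zinc ion that read DNA, and a few bind RNA instead. Many of them have a KRAB domain, which recruits the corepressor Trim28 and the histone methyltransferase Setdb1 to silence nearby DNA, transposable elements included. Pachytene spermatocytes are in meiotic prophase, when homologous chromosomes are paired and most chromosomes are highly transcribed. Round spermatids are haploid, formed by the meiotic divisions, and their nucleus is not yet compacted.

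Arrays of a group correlated at 0.971 or more over all probe sets. Young rats 1, 10 and 11 stood apart among the pachytene arrays: on a first principal component that held 73.9% of the variance they lay at -86.3, -47.1 and -44.0, while the remaining young rats lay at -7.4 to 3.8 and the aged rats at 16.2 to 39.6. Marker levels went with the labels on average. Each cell type on its own scale, 13 pachytene markers averaged 2.48 to 2.73 log2 units above the mean of all genes in young pachytene arrays. In young round spermatid arrays they averaged 0.74 to 1.02 above it. On a scale common to both cell types these means were 2.06 and 0.89. Of the 13 markers, 10 were called lower and 3 higher in round spermatids. The 11 round spermatid markers averaged 3.01 to 4.05 above the mean of all genes in young pachytene arrays and 4.19 to 4.32 in young round spermatid arrays. The 15 measured late spermatid markers, none of them below background in any group, averaged 4.78 to 5.84 above it in young pachytene arrays, highest in rats 1, 11 and 10, and 4.43 to 4.92 in aged ones. The 16 Sertoli cell markers averaged 1.77 to 2.47 above it in young pachytene arrays and 1.02 to 1.35 in aged ones, and 12 and 10 of them were above background there. Markers of Leydig cells, macrophages and peritubular cells lay near or below the mean of all genes in every group.

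More numbered Zfp genes were read above background in pachytene spermatocytes than in round spermatids. A gene was called above background in a group when it exceeded, on each of the 6 arrays, the 95th percentile of 49 genes of other organs on that array. By this measure 104 of 193 genes (53.9%) were above background in young pachytene spermatocytes and 92 (47.7%) in aged ones. Round spermatids gave 44 (22.8%) at the young age and 58 (30.1%) at the old age. Over all genes measured the shares were 50.1%, 44.3%, 27.6% and 32.1% in the same order, so the Zfp share was the higher one in both pachytene groups and the lower one in both round spermatid groups; no test was made of this. The threshold lay at 7.87 to 8.27 log2 units in pachytene arrays and at 8.89 to 9.22 in round spermatid arrays, so the cell type and the background of its arrays cannot be told apart for dim genes. In bulk samples, fewer cells of a type and less RNA per cell cannot be told apart either. At the 90th percentile instead, 111 genes (57.5%) passed in young and 120 (62.2%) in aged pachytene spermatocytes, so their order by age turned. Over all genes these shares were 55.3% and 53.9%. Above the array median were 137 and 136 (63.6% and 63.8% of all genes).

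**Figure D1:**
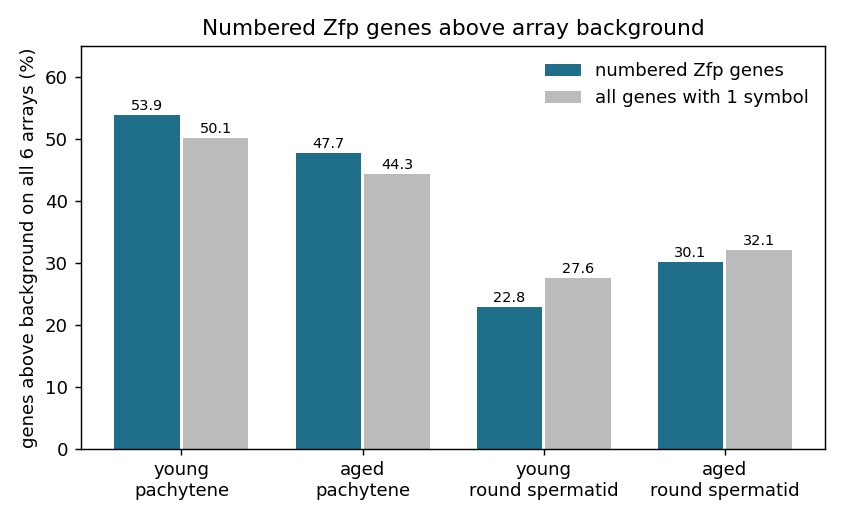
Share of genes above array background on all 6 arrays of a group (percent, vertical axis) in the 4 groups, for the 193 numbered Zfp genes and for all genes with 1 symbol. The Zfp genes reached 53.9% and 47.7% in pachytene spermatocytes and 22.8% and 30.1% in round spermatids, close to all genes in each group.

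On all 24 arrays, 38 genes (19.7%, against 24.9% of all genes) were above background. Among them were Zfp143, an activator of many housekeeping promoters, Zfp217, a corepressor partner, Zfp384, Zfp91, Zfp638, Zfp706 and Zfp474. On all pachytene arrays and no round spermatid array were 27 genes (14.0%, against 10.2% of all genes), among them Zfp212, Zfp326, Zfp644, Zfp536 and Zfp426. No Zfp gene showed the reverse pattern, which 6 genes of the whole array did. A further 65 genes (33.7%, against 40% of all genes) were above background on no array, including Zfp37, known from the mouse testis, and the X-linked Zfp182, Zfp185 and Zfp275. The remaining 63 genes passed on part of the arrays.

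Between the cell types, more Zfp genes were called lower than higher in round spermatids. For this comparison a constant was added to the linear pachytene signals so that bacterial and phage controls matched, all arrays were put on a common scale, and limma was fitted with the Benjamini-Hochberg adjusted p over all probe sets. At an adjusted p below 0.05, 75 Zfp genes (38.9%) were higher in round spermatids, where 49.2% of all genes were called higher. Another 95 (49.2%) were lower, where 39.1% of all genes were called lower. The median log2 difference was -0.05 over the Zfp genes and 0.05 over all genes. Differences of 2-fold or more were measured in 23 genes that were higher (11.9%, against 10.4% of all genes) and 29 that were lower (15%, against 9.98%). On the deposited scale after the offset the counts were 56 higher and 109 lower, and there more of all genes were lower (46.8%) than higher (39.7%), so the order over all genes turned with the scaling while that of the Zfp genes did not. The 65 genes at background everywhere gave 24 of the higher and 27 of the lower calls. The 38 genes above background on all 24 arrays gave 28 and 8, and the 27 above it in pachytene spermatocytes alone 2 and 22. The remaining 63 genes gave 21 and 38. The classes were set by the same signals as the calls, with a higher threshold in round spermatid arrays. Their splits therefore follow in part from the filter and are no separate result. These classes were not counted over all genes.

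**Figure D2:**
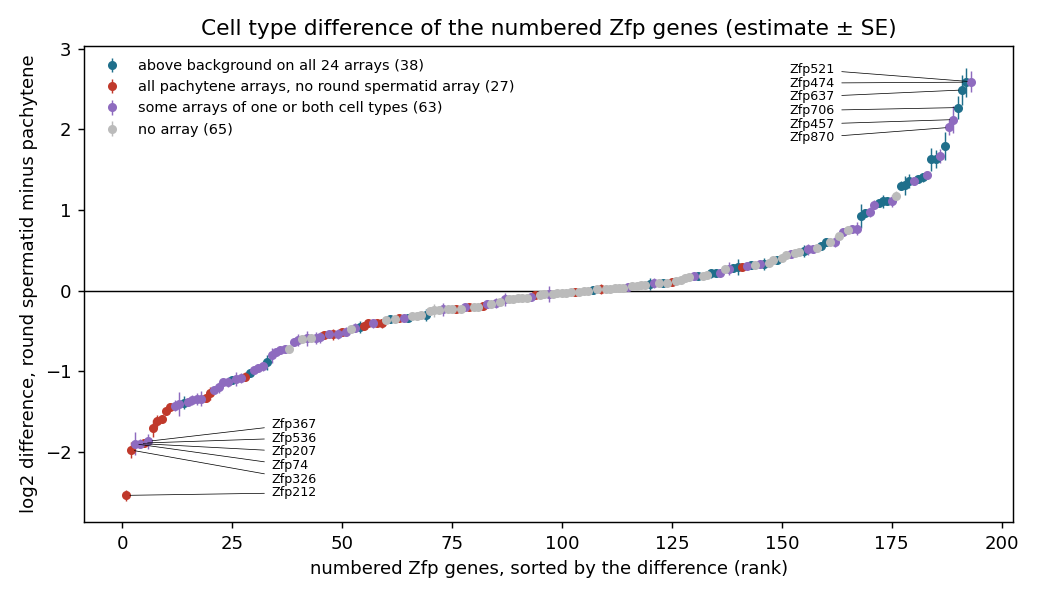
Log2 difference between round spermatids and pachytene spermatocytes (vertical axis, estimate ± SE, 12 arrays per cell type) for each of the 193 numbered Zfp genes, sorted by size (horizontal axis, rank). Colours give the arrays on which a gene was above background. Zfp212 lies lowest at -2.54 and Zfp521 highest at 2.59.

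Zfp212 had the largest measured fall in round spermatids, where its signal was at background. It read 10.32, 10.93 and 11.06 (lowest, median and highest log2 signal) in young pachytene arrays and 10.94 to 11.09 in aged ones. In round spermatids it read 8.19, 8.39 and 8.72 in young rats and 8.35, 8.37 and 8.42 in aged rats. No round spermatid array reached any pachytene array. The measured log2 difference was -2.54 ± 0.065 (SE, 12 arrays per cell type; limma adjusted p = 5.97e-20). Because no round spermatid array was above background, the fall is known only as at least 3.09-fold, and its rank among the genes is not settled.

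Zfp644, a partner of the histone methyltransferases G9a and GLP, and Zfp326, a subunit of a complex that couples transcription to splicing, showed the same pattern. Zfp326 read 10.08 to 11.12 over the pachytene arrays and 7.99 to 8.89 over the round spermatid arrays, at least 2.32-fold lower (limma adjusted p = 3.24e-15). Zfp644 read 9.74 to 10.83 and 8.71 to 9.15, at least 2.40-fold lower (limma adjusted p = 2.60e-15). Both genes were separated completely between the cell types. Of the 27 genes above background in pachytene spermatocytes alone, 5 had such a lower bound of 1.5-fold or more. Zfp426 and Zfp536 complete these 5, at least 1.69-fold and 1.77-fold lower. Of the 3 other Zfp536 probe sets, 1 was called in the opposite direction at 0.09.

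Zfp207, which promotes the attachment of kinetochores to the mitotic spindle, read 10.68 to 11.27 in pachytene arrays and 8.84 to 9.40 in round spermatid arrays. It was above background on 1 of 6 young and 5 of 6 aged round spermatid arrays and was at least 3.26-fold lower there (limma adjusted p = 1.54e-18). Zfp367 read 10.72 to 11.71 in pachytene arrays and 9.05 to 9.88 in round spermatid arrays, at least 3.52-fold lower, with 11 of 12 round spermatid arrays above background. Zfp74 was called lower in round spermatids, but it was above background on 9 of 12 pachytene arrays and on no round spermatid array, and set against background it gave no bound above 1.

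The largest rise in round spermatids was that of Zfp521, a large transcription cofactor of stem and progenitor cells. It read 8.44, 9.03 and 10.03 in young pachytene arrays and 8.22, 8.32 and 8.70 in aged ones. In round spermatids it read 11.42, 11.53 and 11.63 in young rats and 11.06, 11.17 and 11.29 in aged rats. Every round spermatid array lay above every pachytene array, and the highest pachytene value was that of young rat 1. The measured difference was 6.02-fold (log2 2.59 ± 0.13; limma adjusted p = 7.35e-15). With 4 of 6 aged pachytene arrays not above background, the bound is at least 5.71-fold.

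Zfp474, described as a testis zinc finger gene, rose by 2.58 on the log2 scale, from at most 11.30 in pachytene arrays to medians of 12.31 and 12.12 in young and aged round spermatid arrays. Zfp637 rose 5.61-fold and Zfp706, which encodes a short protein, 4.82-fold. Zfp819 rose 3.46-fold. In pachytene spermatocytes Zfp457 was above background on 10 of 12 arrays, Zfp870 on 3 and Zfp954 on 2, so their rises are given as at least 4.34-fold, 2.95-fold and 2.18-fold. These 4 calls had a limma adjusted p of 1.19e-09 or smaller. In all 8 genes the lowest round spermatid array lay above the highest pachytene array. They were picked by size in this same comparison, so the separation is no separate support. Its share over all genes was not counted. Without young rats 1, 10 and 11 these 8 measured differences grew to between 1.84 and 2.92 log2 units.

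The direction between cell types depended on the probe set for part of the family. Of the 72 Zfp genes with several probe sets, 69 were called through the brightest one. Another probe set of the gene was called in the same direction in 50 and in the opposite direction in 25, of which 11 genes had both. Zfp143 rose by 1.40 through its brightest probe set and fell by 0.66 through the other. Zfp423, which is related to Zfp521, rose by 1.39 and by 0.60 and 0.20 through 3 probe sets and fell by 0.46 through the fourth. In both genes the brightest probe set was the one above background on all 24 arrays. In Zfp574 all 3 probe sets were above background on all 24 arrays, yet the brightest fell by 0.30 and the others rose by 0.29 and 0.27. With age in pachytene spermatocytes, 45 of the 72 genes were called through the brightest probe set. Another was called in the same direction in 27 and in the opposite direction in 0. With age in round spermatids 23 were called through the brightest. Another was called in the same direction in 6, in the opposite direction in 2 and in neither in 15. Probe sets were not compared in this way over all genes.

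With age, more Zfp genes rose than fell in pachytene spermatocytes. Each array was quantile normalized within the cell type, so a change is relative to the whole distribution of the array. In aged rats 68 genes (35.2%) were higher and 33 (17.1%) lower, where 25.5% and 19.0% of all genes were called. The median change was 0.07 over the Zfp genes and 0.05 over all genes. The groups did not overlap in 65 genes (33.7%; 26.7% of all genes), and in 50 of them (25.9%; 16.7% of all genes) the aged arrays were the higher ones. On the deposited scale, where the median of all genes moved by -0.25, the counts were 17 higher and 104 lower, where 6.70% and 55.8% of all genes were called. Without young rats 1, 10 and 11 they were 52 higher and 20 lower (17.4% and 12.8% of all genes), of which 49 and 20 were among those called with all rats.

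Zfp457 fell most in aged pachytene spermatocytes. It read 8.71, 9.78 and 10.82 (lowest, median, highest) in young rats and 8.29, 8.40 and 8.95 in aged rats. The 3 highest young values belonged to rats 1, 11 and 10, and the groups overlapped. The change was -1.33 ± 0.32 (limma adjusted p = 0.00742), and -0.67 without those 3 rats (adjusted p = 0.0245). Zfp61 read 11.54, 12.19 and 13.12 in young rats and 10.91, 11.15 and 11.58 in aged rats, again highest in young rats 1, 11 and 10. It changed by -1.09 ± 0.24 (limma adjusted p = 0.00509), and by -0.56 without the 3 rats (adjusted p = 0.00904).

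For Zfp697 the 3 young rats did not stand apart. It read 9.20, 9.51 and 9.89 in young rats and 7.84, 8.32 and 8.70 in aged rats, with no overlap. Its measured change was -1.15 ± 0.15 (limma adjusted p = 0.000461), and -1.11 without them. Since 3 of 6 aged arrays were not above background, the fall was at least 2.02-fold. Zfp266 read 8.11 to 9.26 in young rats and 7.26 to 7.86 in aged rats, where it was above background on no array. It was at least 1.10-fold lower, with a measured change of -0.89 ± 0.18 that was -0.59 without the 3 rats.

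Zfp521, Zfp819, Zfp637 and Zfp870, all 4 higher in round spermatids, also fell, by 1.03, 1.01, 1.01 and 0.91. Their calls were lost without young rats 1, 10 and 11, at adjusted p of 0.102, 0.0892, 0.117 and 0.112 and changes of -0.41 to -0.31. Zfp521 was above background on 2 of 6 aged pachytene arrays and was at least 1.72-fold lower. Zfp870 was above background on 3 of 6 young pachytene arrays and on no aged one, and gave no bound above 1. Zfp637 also lost its call without single rats, young rat 10 or 11 or any of 5 aged rats, with an adjusted p of up to 0.0673. Zfp706 fell by 0.84 and by 0.35 without the 3 rats. The late spermatid markers moved the same way: 13 of 15 were lower in aged pachytene arrays, and their level was highest in young rats 1, 11 and 10. Sertoli markers were lower in 13 of 16. The part of either in these falls was not tested.

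**Figure D3:**
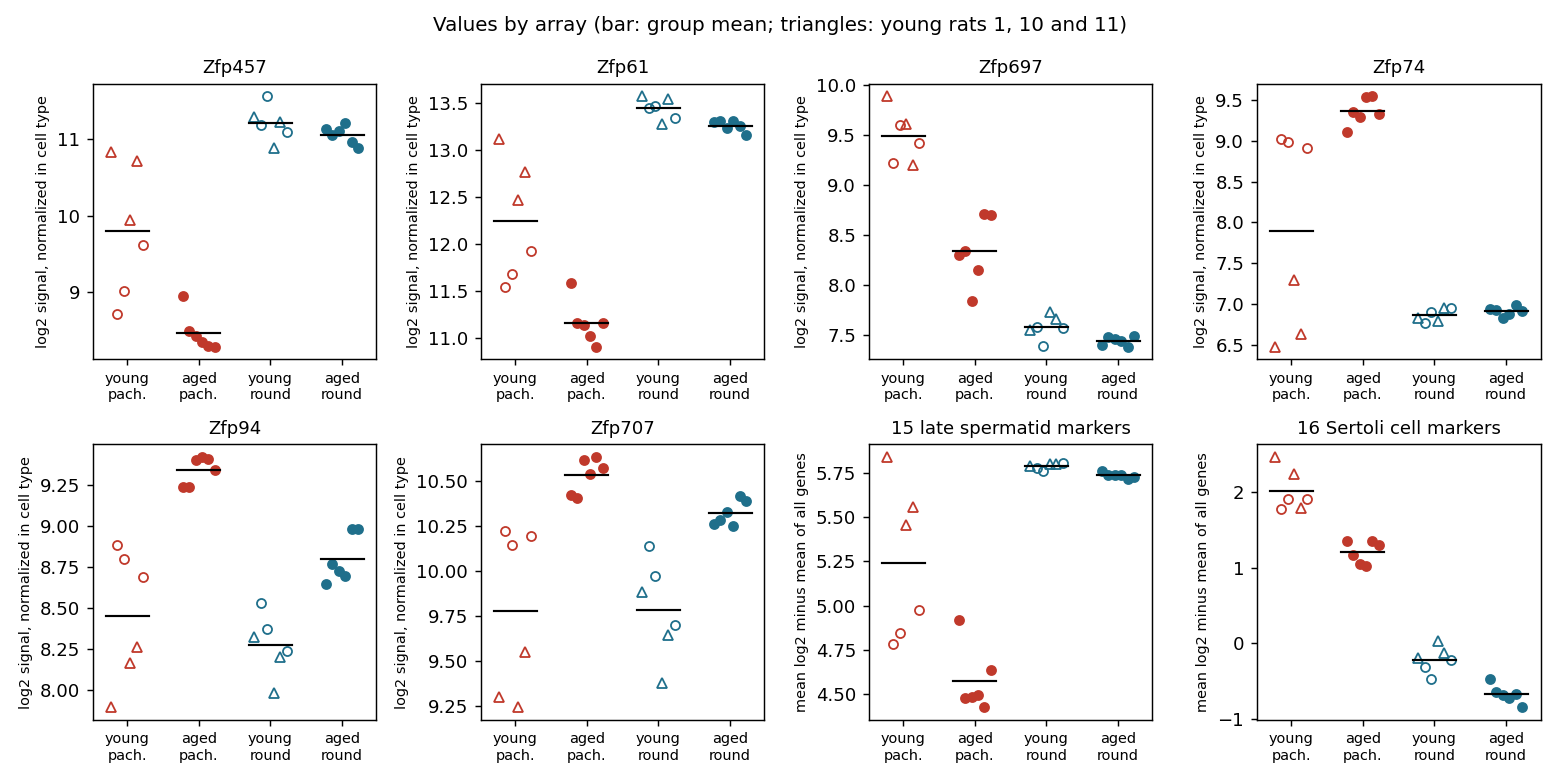
Values in each array for 6 numbered Zfp genes (log2 signal, normalized within the cell type) and the mean level of late spermatid and Sertoli cell markers (log2, relative to the mean of all genes). Each point is 1 array, open for young and filled for aged rats, triangles mark young rats 1, 10 and 11, and bars are group means. In young pachytene arrays the triangles lie highest for Zfp457 and Zfp61 and lowest for Zfp74, Zfp94 and Zfp707.

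The largest measured rise in aged pachytene spermatocytes was that of Zfp74. It read 6.48, 8.10 and 9.03 in young rats and 9.10, 9.34 and 9.55 in aged rats. Young rats 1, 11 and 10 read 6.48, 6.63 and 7.29, the other young rats 8.92 to 9.03, and no aged array overlapped with a young one. The values of those 3 young rats were under background, so the rise was at least 1.99-fold. The measured change was 1.47 ± 0.44 (limma adjusted p = 0.0206), and 0.40 without those 3 rats (adjusted p = 0.0093). Zfp57, which protects methylation at imprinted genes, read 7.43, 9.33 and 10.03 in young rats and 10.12, 10.21 and 10.29 in aged ones. It rose by 1.12 ± 0.37 (limma adjusted p = 0.0319), and by 0.27 without the 3 rats. The Zfp57 call was lost when young rat 10 or 11 or aged rat 5, 8, 9 or 10 was left out, with an adjusted p of up to 0.0666.

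Zfp94 read 7.90, 8.48 and 8.89 in young rats and 9.24, 9.37 and 9.42 in aged rats. It rose by 0.89 ± 0.15 (limma adjusted p = 0.00122), and by 0.57 without the 3 rats. Zfp157, Zfp316, Zfp707, Zfp426 and Zfp260 rose by 0.82, 0.76, 0.76, 0.74 and 0.70. Without young rats 1, 10 and 11 these changes were 0.53, 0.31, 0.35, 0.30 and 0.34, each still past the threshold. The 8 rises named were picked by size in this comparison, which favours genes without overlap. In each of these 8 genes all aged arrays lay above all young arrays, and young rats 1, 10 and 11 were the 3 lowest young rats. The same 3 rats were the lowest young ones in 51 of the 68 Zfp genes called higher and the highest in 21 of the 33 called lower. This was counted for the Zfp genes only. The 3 rats also stood apart on the first principal component over all probe sets. Zfp316 was above background on 3 of 6 young arrays. For Zfp157 a second, dimmer probe set rose by 1.05. The second probe sets of Zfp316 and Zfp260 changed by -0.03 and 0.01 (limma adjusted p = 0.755 and 0.845).

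Both Zfp61 and Zfp94, neighbours on chromosome 1, and Zfp426 and Zfp266, neighbours on chromosome 8, moved in opposite directions with age in pachytene spermatocytes. Their promoters are shown because they let the sequence of neighbours with opposite changes be set side by side. The pairs and the motifs were chosen after the values were seen. Each sequence covers 250 bases before to 50 after the start of the gene in RefSeq, build GRCr8, on the strand of the gene, and promoters were found for 159 of the 193 genes. Capitals mark the cAMP response element (CRE, TGACGTCA) and matches to the Zfp143 binding site, searched on both strands.
Zfp61 (chr1:88985610-88985909, minus strand): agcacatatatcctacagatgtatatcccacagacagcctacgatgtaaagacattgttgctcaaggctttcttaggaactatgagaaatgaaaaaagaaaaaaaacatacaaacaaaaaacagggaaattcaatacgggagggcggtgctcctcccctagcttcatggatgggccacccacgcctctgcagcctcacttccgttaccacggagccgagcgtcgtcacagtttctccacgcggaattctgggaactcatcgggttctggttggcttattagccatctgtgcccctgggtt
Zfp94 (chr1:89007466-89007765, minus strand): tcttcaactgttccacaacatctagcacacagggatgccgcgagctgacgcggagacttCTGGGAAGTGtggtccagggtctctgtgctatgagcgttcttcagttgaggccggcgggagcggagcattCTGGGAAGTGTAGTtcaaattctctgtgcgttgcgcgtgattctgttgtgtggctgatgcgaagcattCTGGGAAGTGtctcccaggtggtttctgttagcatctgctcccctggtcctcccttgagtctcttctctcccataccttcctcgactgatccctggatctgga
Zfp426 (chr8:27305008-27305307, minus strand): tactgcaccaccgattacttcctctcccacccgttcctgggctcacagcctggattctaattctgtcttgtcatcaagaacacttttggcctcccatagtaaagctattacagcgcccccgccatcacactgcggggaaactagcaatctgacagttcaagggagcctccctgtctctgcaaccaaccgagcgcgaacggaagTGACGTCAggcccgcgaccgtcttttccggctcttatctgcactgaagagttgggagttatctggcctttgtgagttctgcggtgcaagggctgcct
Zfp266 (chr8:27337490-27337789, minus strand): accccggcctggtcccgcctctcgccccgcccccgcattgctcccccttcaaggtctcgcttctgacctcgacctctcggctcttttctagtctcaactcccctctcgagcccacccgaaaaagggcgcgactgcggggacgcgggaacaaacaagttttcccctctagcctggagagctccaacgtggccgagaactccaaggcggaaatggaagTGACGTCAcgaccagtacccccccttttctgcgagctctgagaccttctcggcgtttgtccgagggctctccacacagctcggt

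The Zfp94 promoter held 3 matches to the short form of the Zfp143 site (its core letters TCCCAG, preceded by CA and any 2 bases), of which 1 also matched the longer form (ACTACA, any 2 bases, then TCCCA), and the Zfp61 promoter held none. The short form was found in 8.18% of Zfp promoters and 4.43% of all 27457 promoters, the overlapping longer form in 8.81% and 1.47%. The Zfp426 and Zfp266 promoters each held 1 CRE, starting at -47 and -34 from the start site. In all, 4 Zfp promoters held a CRE (2.52%, against 1.88% of all promoters). The CCAAT box (CCAAT) occurred in 40.9% and 37.6%, the MYB core (AACTG or AACGG) in 60.4% and 55.7%, and the NRF1 motif in 9.43% and 4.13%. Zfp promoters held a median of 18 CpG dinucleotides, against 7 over all promoters. The 27457 promoters are all those of the reference and were not limited to genes measured on the arrays, so the sets are unlike. A match is a description of the letters and no evidence of binding. Over the 24 pairs of neighbouring Zfp genes, both were called between cell types in 18, in the same direction in 10 and in opposite directions in 8. With age in pachytene spermatocytes both were called in 8 pairs, in the same direction in 4 and in opposite directions in 4. With age in round spermatids both were called in 2 pairs, each in opposite directions. Pairs of genes that are not neighbours were not counted. Between cell types 75 of the 193 Zfp genes were called higher and 95 lower, so many pairs are both called whatever their position. The counts are therefore no result about neighbours.

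In round spermatids fewer Zfp genes changed with age. In aged rats 28 (14.5%) were higher and 16 (8.29%) lower, where 12.5% and 12.4% of all genes were called. The groups did not overlap in 23 genes (11.9%; 11.7% of all genes), and in 17 of them (8.81%; 6.41% of all genes) the aged arrays were the higher ones. The median change was 0.01 over the Zfp genes. With arrays centred on their medians the counts were 24 higher and 8 lower (7.74% and 8.53% of all genes), and on the deposited scale, where the median of all genes moved by 0.15, 102 higher and 4 lower (50.7% and 3.69% of all genes). Without young rats 1, 10 and 11 they were 15 higher and 5 lower (4.67% and 3.65% of all genes).

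Zfp219 fell most in aged round spermatids, from 9.63, 10.26 and 11.01 (lowest, median, highest) to 9.24, 9.58 and 9.86. The groups overlapped, and the change of -0.71 ± 0.18 (limma adjusted p = 0.0161) was lost without the 3 young rats (-0.43, adjusted p = 0.123). Zfp706 fell from 11.54, 11.84 and 12.61 to 11.09, 11.26 and 11.59, by 0.63 ± 0.16, with overlap, and was lost likewise (-0.46, adjusted p = 0.0678). Zfp521 read 11.32, 11.44 and 11.55 in young rats and 10.91, 11.03 and 11.16 in aged rats with no overlap. It fell by 0.40 ± 0.050 (limma adjusted p = 0.00178), and by 0.34 without the 3 rats. Zfp513 and Zfp277 fell by 0.34 and 0.33 without overlap. Zfp131 fell by 0.48, but its other probe set changed by 0.34 (adjusted p = 0.0701). Zfp764 fell by 0.56 and was at least 1.02-fold lower, since no aged array was above background. Zfp870 fell by 0.31 and lost its call without the 3 rats (adjusted p = 0.16).

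Zfp707 rose most, from 9.37, 9.79 and 10.14 to 10.25, 10.31 and 10.42. The groups did not overlap, and the change was 0.54 ± 0.10 (limma adjusted p = 0.00406). Zfp217, Zfp287, Zfp646 and Zfp41 rose by 0.48, 0.51, 0.46 and 0.40, and their young and aged arrays overlapped in Zfp41 alone among these 4. The other Zfp41 probe sets changed by 0.05 and -0.05 (limma adjusted p = 0.554 and 0.718). The other Zfp287 probe set rose by 0.09 (limma adjusted p = 0.0403). Zfp287 was above background on 1 of 6 young arrays and rose at least 1.11-fold. Zfp94, Zfp612 and Zfp18 were also called higher, but they were above background on 2, 1 and 0 of the 6 aged arrays and on no young array, so the sizes of their measured changes (0.53, 0.44 and 0.38) are not settled. All 8 calls passed the threshold without young rats 1, 10 and 11, at measured changes of 0.26 to 0.43.

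Both cell types came from the same rats if the numbers in the titles are rats, as read here. In both, 25 Zfp genes (13%, against 8.22% of all genes) were called higher and 8 (4.15%, against 6.58%) lower in aged rats, and Zfp512 was called lower in pachytene spermatocytes and higher in round spermatids. Zfp707 changed by 0.76 in pachytene spermatocytes and 0.54 in round spermatids, and Zfp94 by 0.89 and by 0.53 near background. Zfp521 changed by -1.03 and -0.40, Zfp706 by -0.84 and -0.63, and Zfp219 by -0.76 and -0.71.

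**Figure D4:**
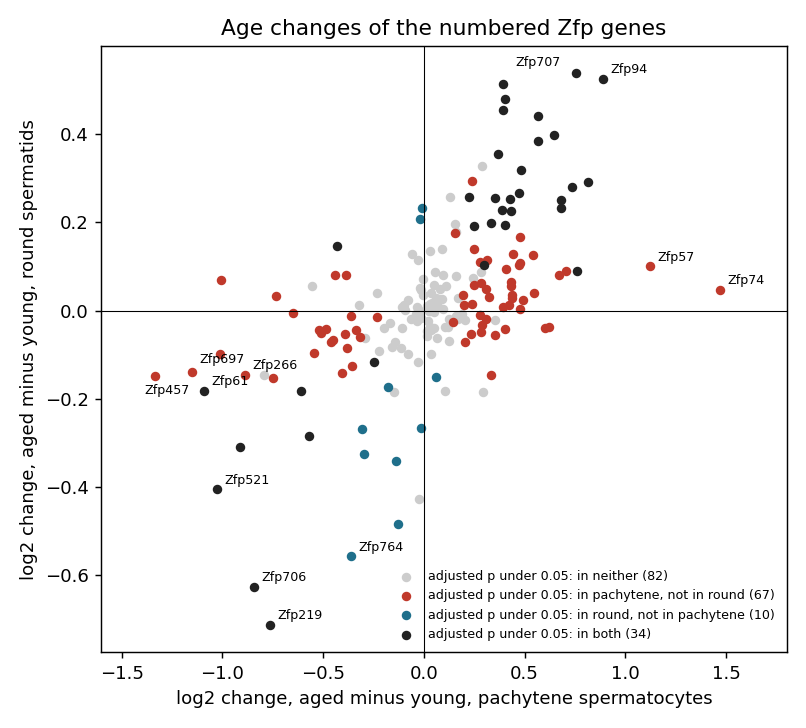
Log2 change with age (aged minus young) in pachytene spermatocytes (horizontal axis) and round spermatids (vertical axis) for each of the 193 numbered Zfp genes, with colours for the calls at a limma adjusted p below 0.05. The axes differ in scale: pachytene changes reach from -1.33 to 1.47 and round spermatid changes from -0.71 to 0.54.

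The difference of the age change between cell types was tested directly on the common scale. It was positive (a higher change in round spermatids) in 11 Zfp genes and negative in 19, where 7.36% and 8.81% of all genes were called. The shares of Zfp genes were 5.70% and 9.84%. On the deposited scale, where the difference moved by 0.29 for the median of all genes, the counts were 140 and 0 (76.1% and 0.134% of all genes). With arrays centred on their medians they were 19 and 29 (11.7% and 19.3% of all genes). Without young rats 1, 10 and 11 they were 6 and 14 (5.35% and 5.7% of all genes). Of these, 6 and 9 were among those called with all rats.

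Zfp335, a subunit of histone methyltransferase complexes, had the smallest adjusted p. In pachytene spermatocytes it read 8.20, 8.39 and 8.49 in young rats and 8.63, 8.73 and 8.83 in aged rats, with no overlap. In round spermatids it read 7.95, 7.99 and 8.07 and then 7.89, 7.94 and 7.98, above background on no array. The difference of the changes was -0.31 ± 0.048 (limma adjusted p = 0.000432), and on the deposited scale it was 0.13. Zfp697 read 9.20 to 9.89 and then 7.84 to 8.70 in pachytene spermatocytes, and 7.39 to 7.73 and then 7.39 to 7.49 in round spermatids, a difference of 0.70 ± 0.14. Zfp512 differed by 0.52 ± 0.082 (limma adjusted p = 0.000544), with changes of -0.43 and 0.15. Both genes, like Zfp335, were above background on no round spermatid array, so their change there, and with it the size of the difference, is not settled. Zfp423 and Zfp865, both above background in aged round spermatids, differed by -0.38 and -0.45, and on the deposited scale by 0.13 and 0.01.

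Genes of the series with a described role were read from a list of 39, of which 28 were measured with a single symbol. Of these 28, 9 (32.1%) were higher and 15 (53.6%) lower in round spermatids, where 49.2% and 39.1% of all genes were called. With age in pachytene spermatocytes 9 (32.1%) were higher and 6 (21.4%) lower, against 25.5% and 19.0% of all genes. With age in round spermatids 4 (14.3%) were higher and 4 (14.3%) lower, against 12.5% and 12.4% of all genes. The related G-rich element binders Zfp281 and Zfp148 were called lower in round spermatids, Zfp281 at least 1.43-fold, while Zfp148 was above background on no array there and gave no bound above 1. Zfp638, which silences unintegrated DNA, was lower 2.16-fold and above background on all 24 arrays. Zfp346, a binder of double-stranded RNA, was called lower in round spermatids, where it was above background on no array and gave no bound above 1, and it rose with age in pachytene spermatocytes by 0.62 (limma adjusted p = 0.00287). Zfp217 was lower 2.62-fold and rose with age by 0.40 in pachytene spermatocytes and 0.48 in round spermatids.

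Zfp318, named for its expression in the testis, was at least 1.48-fold lower in round spermatids, with 11 of 12 arrays above background there, and rose with age by 0.35 and 0.26. Both age calls were lost without young rats 1, 10 and 11 (adjusted p = 0.188 and 0.0544), and the pachytene call also without single rats (adjusted p up to 0.0819). Zfp384 rose with age by 0.33 and 0.20, of which the second was lost without those rats (adjusted p = 0.176). Zfp24 and Zfp148 fell with age in pachytene spermatocytes by 0.35 and 0.40 to levels not above background. Zfp105 rose by 0.28 there and lost the call without the 3 rats (adjusted p = 0.0581). Its difference between cell types was 0.21 here, -0.28 with arrays centred on their medians and -0.34 on the deposited scale. Zfp143, Zfp207 and Zfp292 changed with age in round spermatids by -0.27, 0.23 and -0.17, and all 3 calls were lost without young rats 1, 10 and 11 (adjusted p = 0.0765, 0.473 and 0.116). Those of Zfp143 and Zfp207 were also lost without single rats. Zfp292 was above background on no round spermatid array. Zfp36, an mRNA decay factor known as tristetraprolin, had no call in any of these 3 comparisons and was above background on 4 of 6 young pachytene arrays. Zfp37, Zfp365 and Zfp689 had no call and no array above background.

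Of the KRAB corepressor genes listed, 15 of 17 were measured. Of these, 8 (53.3%) were lower and 5 (33.3%) higher in round spermatids (median -0.10), against 39.1% and 49.2% of all genes. Trim28, the corepressor itself, was lower by 0.43 and rose with age by 0.24 in pachytene spermatocytes and 0.25 in round spermatids. Setdb1, its histone methyltransferase, was lower 2.38-fold and above background on all 24 arrays. Rbbp7, a histone chaperone of this complex, was lower by 0.87 and fell with age by 1.14 and 0.36. With age 7 of the 15 (46.7%) were higher and 3 (20.0%) lower in pachytene spermatocytes, against 25.5% and 19.0% of all genes. In round spermatids 3 (20.0%) were higher with age and 2 (13.3%) lower, against 12.5% and 12.4% of all genes. Of the Ccr4-Not deadenylase, which Zfp36 recruits to mRNA, 8 of 10 measured subunits were lower and 1 higher in round spermatids (median -0.65). Cnot10 was lower by 1.24 and Cnot4 higher by 0.73, both above background on every array, while Cnot8, also called lower, was above it on no round spermatid array and gave no bound above 1. Of the partners of Zfp541, a meiotic zinc finger protein whose gene was not analysed here, 3 of 4 were measured: Hdac1 was higher by 0.53, Hdac2 by 0.79, and Dnttip1 lower by 0.29 in round spermatids.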

How the data were processed

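The submitters deposited log2 signals for 31099 probe sets on 24 Affymetrix rat arrays made from 3 ug of total RNA each, per the labels. The summarisation program, its background correction and its normalization are not given in the sources used here, and no detection calls were used. Probe sets were named through the platform annotation: 20826 had 1 symbol, 436 several and 9780 none. The 57 control probe sets were left out of the tests, which ran on 31042 probe sets. For age, arrays were quantile normalized within a cell type. Across cell types, 90.3 was added to the linear pachytene signals, matched on 45 controls (mean difference 0.61 ± 0.77 before, -0.03 ± 0.17 after; SD over controls), and all arrays were quantile normalized together. Tests used limma 3.58.1 in R 4.3.3 (lmFit, eBayes) with Benjamini-Hochberg adjustment, threshold 0.05, and were first tested on simulated data. Both fractions of a rat shared its number, but their deviations correlated at only -0.08 to 0.32, and the rat as a block is an alternative. Among rats of the same age, the fraction with the same number was the best match in 5 of 12.

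The number of arrays limits the precision. Replicates are numbered in the titles, read here as rats, and p-values measure the spread between these samples. An at least N-fold value sets the mean of the brighter group against the higher of background and the own value on each dim array. The rule for naming genes took, past the threshold, the top 8 by size on either side (5 by adjusted p for the difference) and called genes of a list of known members, plus genes of the corepressor and deadenylase lists. Neighbouring pairs and promoters were picked after their values were seen. The members and all lists were chosen with earlier results of these data known.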

Additional observations from a re-analysis of the deposited data

Results flagged for a closer look

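Within a group, 4 of 98 sets of 6 arrays held 1 array far from the others, where the 95% critical value used is set to flag about 1 in 20 by chance. Zfp457 read 8.95 in aged pachytene rat 2, against 8.29 to 8.50 in the other aged rats, and Zfp61 read 11.58 in the same rat, against 10.91 to 11.16. Zfp131 read 10.21 in young round spermatid rat 10, against 9.36 to 9.68, and Zfp646 read 11.12 in that rat, against 11.62 to 11.89. Aged rat 2 also had the highest late spermatid marker level among aged pachytene arrays, at 4.92, and young rat 10 lay lowest on the first principal component of the round spermatid arrays, at -40.7. Their part in these values was not tested.

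The age change differed between the cell types by a direct test (limma, round spermatid change minus pachytene change on the common scale) in 8 of the genes named. These 8 were named by their call in this same test, so that they passed it is no separate support. The differences were -0.31 for Zfp335, 0.52 for Zfp512, -0.38 for Zfp423, -0.45 for Zfp865, 0.70 for Zfp697, -0.38 for Zfp260, -0.47 for Zfp346 and 0.33 for Zfp536. Except for Zfp423 and Zfp865, these genes were above background on no round spermatid array, so the size of their difference is not settled. Zfp260 (adjusted p = 0.0433) and Zfp536 (adjusted p = 0.0242) lost the call when single rats were left out, with adjusted p of up to 0.0893 and 0.0798. Zfp260 also lost it without young rats 1, 10 and 11 (adjusted p = 0.0666) and without the background offset (adjusted p = 0.109).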

How the results depend on the processing

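Counts are genes higher and lower unless stated. The values on the deposited scale were, for age, 17 and 104 in pachytene spermatocytes and 102 and 4 in round spermatids, and for the difference of the age change 140 and 0. At an unadjusted p under 0.05 in the same limma fit the difference gave 146 and 0. The share over all genes at that p was not counted. With median centring, 8 genes were lower with age in round spermatids, and the difference gave 19 and 29. Averaging all probe sets of a gene, 7 differences were positive (7.26% of all genes). Without young rats 1, 10 and 11, 20 genes were lower with age in pachytene spermatocytes, 15 higher and 5 lower in round spermatids, and 6 differences were positive. Leaving out 1 rat at a time gave 58 to 73 and 30 to 38 in pachytene spermatocytes, 23 to 31 and 11 to 19 in round spermatids, 74 to 76 and 92 to 96 between cell types, and 3 to 13 and 6 to 25 for the difference. Over all genes the shares with age were 19.2% to 27% and 15.1% to 21.2%, then 8.61% to 15% and 8.57% to 15.4%. They were 48.5% to 49.2% and 38.5% to 39.3% between cell types, and 3.92% to 9.39% and 5.08% to 10.4% for the difference. Above the highest Trp control on every array were 187 genes in young pachytene, 182 in aged pachytene, 174 in young round and 170 in aged round arrays, and above the array median 117 and 123 in the round spermatid groups. Over all genes these shares were 96.2%, 95.3%, 92.5% and 91.8%, then 63.7% and 64.7%. The number in the titles as a replicate block is shared by different rats (numbers 2, 3 and 10) and gave 0 and 1 genes with age in pachytene spermatocytes and 0 and 0 in round spermatids in limma (35 and 18, 14 and 7 at an unadjusted p under 0.05). Over all genes this block gave 0.0141% and 1.48% in pachytene spermatocytes and 0% and 0% in round spermatids. Same-numbered rats correlated at -0.46 to 0.22 in their deviations. The rat as a replicate block gave 75 and 93 between cell types (49% and 39.1% of all genes). It gave 12 and 22 for the difference (8.4% and 10.1% of all genes) and changed no call of a named gene.

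Signs turned for Zfp335 with age in pachytene spermatocytes on the deposited scale (-0.064). Between cell types they turned for Zfp105 (-0.28 with median centring, -0.34 deposited) and Zfp275 (0.059 and 0.00047). For the difference of the age change on the deposited scale they turned for Zfp335 (0.13), Zfp423 (0.13) and Zfp865 (0.0099). The cause was not tested. Counts stayed within 1.5 times for the filter on the 40% dimmest probe sets, the trended robust eBayes prior and the exclusion of probe sets that can cross-hybridise. Classes by protein domain were not run, since no protein sequences were used here. Signal over background limits the dim genes: 65 of 193 were above it on no array.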

Other observations

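Other zinc finger families of these arrays were counted in the same way. Over all genes 49.2% were higher and 39.1% lower in round spermatids. Of 29 Zbtb genes, which carry a BTB domain with their fingers, 10 (34.5%) were higher and 17 (58.6%) lower in round spermatids (median -0.34). Of 11 Zscan and Zkscan genes, which carry a SCAN domain, 7 (63.6%) were higher and 3 (27.3%) lower (median 0.39). With age in pachytene spermatocytes, 10 of 29 Zbtb genes (34.5%) were higher and 6 (20.7%) lower. Of 14 Klf genes 1 (7.14%) was higher and 6 (42.9%) lower, where 25.5% and 19.0% of all genes were called. These counts share their arrays with those of the Zfp genes and were not tested against them.

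The 3 X-linked Zfp genes, Zfp182, Zfp185 and Zfp275, lay at background on every array. Zfp185 read 1.17 log2 units higher in round spermatids on the common scale, where the array background is higher too.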
